A study of Mus musculus with 4 samples.

Results

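The Id, Msx and BMP feedback genes are 10 mouse genes whose transcription is a common readout of bone morphogenetic protein (BMP) signalling. They were chosen by gene symbol from the deposited expression table: Id1, Id2, Id3, Id4, Msx1, Msx2, Smad6, Smad7, Smad9 and Bambi. All 10 were found, each as 1 row among the 55426 rows of the table. With doxycycline (Dox) 8 of them were higher, Id4 was lower, and Msx1 did not pass the test. Over all tested genes 4.44% were called higher and 4.87% lower. Smad9, among the 8, was high enough to be tested only through the Dox libraries. The responses within families differed: Id1 and Id2 rose several-fold and Id3 rose 1.52-fold while Id4 fell 5.86-fold, and Msx2 rose 5.47-fold while Msx1 averaged 6.79 FPKM without and 4.63 FPKM with Dox.

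BMP ligands bind paired type I and type II receptor kinases, which phosphorylate Smad1, Smad5 and Smad9. These join Smad4, enter the nucleus and bind regulatory DNA, and the Id genes are among the best known direct targets. Id proteins are helix-loop-helix factors without a DNA-binding region, and they hold back proneural factors by occupying their E-protein partners. Smad6, Smad7 and Bambi are induced by the pathway and act back on it at the receptors. In the developing eye BMP signals take part in dorsal patterning of the optic vesicle and in the early choice between neural retina and pigment epithelium.

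The libraries came from mouse organoids at day 6 of retinal differentiation, made from a line labelled Rx:GFP Mettl3 KO that carries a Dox-inducible, HA-tagged METTL3, the catalytic subunit of the RNA N6-methyladenosine writer. All cultures received the compound AGN at 0.1 µM, and the groups were 2 libraries without Dox and 2 libraries with 2 µg/ml Dox for 6 days. The titles read EV and EV+Dox, a code the labels do not explain. All libraries thus share the knockout, the reporter and the inducible construct, and the labels do not say whether the line is 1 clone or whether the duplicates were separate cultures, so the p-values measure only the spread between these libraries, which may be technical.

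Polyadenylated RNA was sequenced as paired ends, and the values are FPKM, a fragment number corrected for transcript length and sequencing depth. Depth fitted from the steps of low values was 31700000 to 34900000 fragments per library. Mettl3 itself was listed at 40.33 and 37.98 FPKM without Dox and at 45.2 and 46.37 FPKM with Dox (adjusted p = 0.122 in limma), and gene values do not separate the inducible from the native copy. Of the exonic bases of Mettl3 18.4% overlap Tox4 on the opposite strand, so without stranded counting part of its value could be Tox4 reads. The tissue label was checked against 14 retinal progenitor markers, which summed to 287 to 318 FPKM without Dox and 1060 to 1240 FPKM with Dox. Most of the sum without Dox was Pax6 and Sox2, with means of 123 and 103 FPKM, against 127 and 151 FPKM with Dox. Pax6 did not pass (adjusted p = 0.796 in limma). Rax, an eye-field homeobox gene, was at 1.12 and 0.82 FPKM without Dox, and Six6, another eye-field homeobox gene, was at 0.01 FPKM in both. Antisense exons of Raxos1 cover 27.4% of the exonic bases of Rax, which makes its level uncertain in the same way. Both of these defining retinal markers were nearly absent from the untreated libraries.

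The comparison asks which of the 10 genes differ with Dox. Values were taken as log2(FPKM + 1). The 13931 genes whose mean over the libraries reached 1 FPKM were tested with limma at an adjusted p below 0.05. Fold changes on that scale understate the change of low genes. Among all tested genes 4.44% were called higher and 4.87% lower with Dox, beside 8 and 1 of the 10 genes described here. The log2 fold change was at least 1 in either direction for 7 of the 10, and for 4.09% of all tested genes. It was at least 2 in either direction for 5 of the 10 and for 1.22% of all tested genes. The median log2 fold change was 1.13 over the 10 and -0.00423 over all tested genes. The groups did not overlap in any of the 10, as in 53.4% of tested genes. Of the 10, 9 had a mean of at least 1 FPKM in both groups. Smad9 passed the filter only through the Dox libraries, so a higher mean with Dox was fixed once it was tested. An exact two-sided permutation test of any single gene cannot go below p = 0.333 with 2 libraries in each group, and all 10 genes gave that value. The calls therefore depend on the variance that limma pools from other genes.

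**Figure D1:**
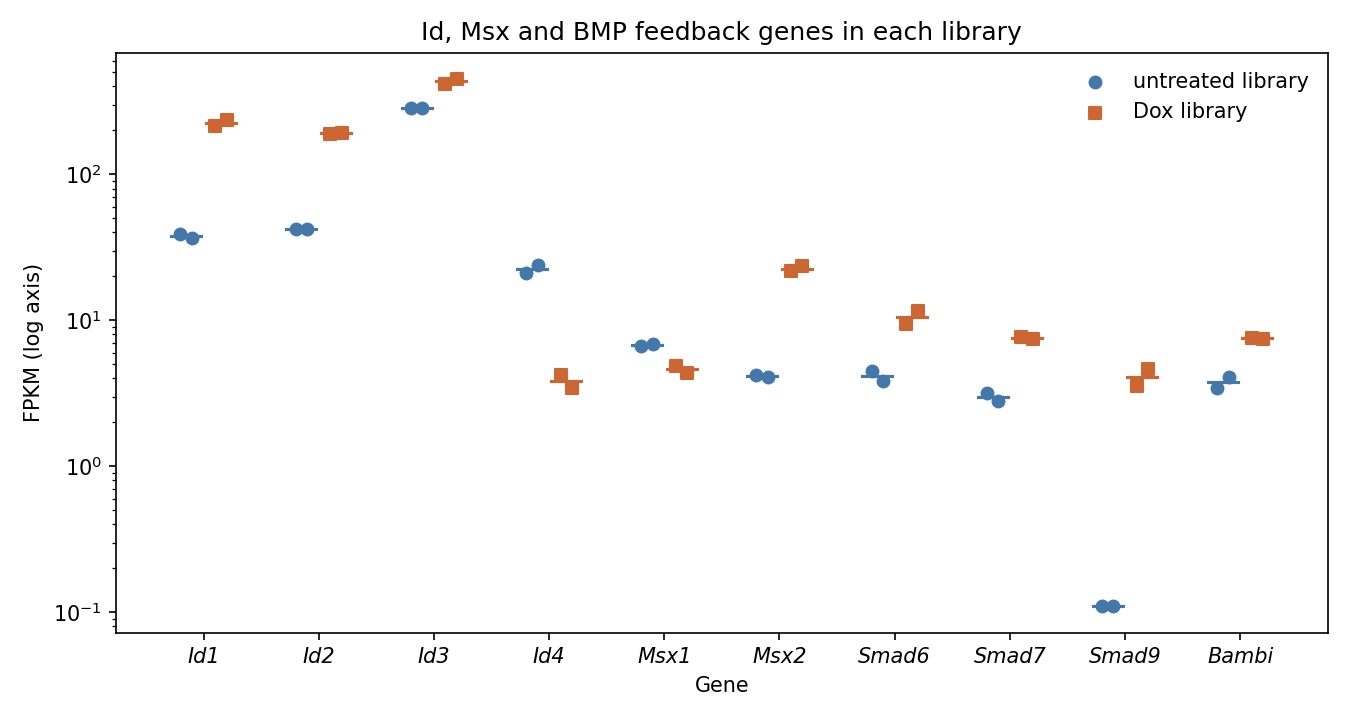
FPKM of the 10 genes in each library on a log axis, with circles for the 2 untreated and squares for the 2 Dox libraries and a short line at each group mean. Id4 and Msx1 are the genes with both Dox libraries below both untreated libraries, and Smad9 has the lowest untreated level, 0.11 FPKM.

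Id1 (ENSMUSG00000042745, chr2:152736251-152737410 on GRCm38) was listed at 39.09 and 36.41 FPKM without Dox and at 215 and 237.46 FPKM with Dox. Both Dox libraries were far above both untreated ones. The means were 37.8 ± 1.90 and 226 ± 15.9 FPKM (SD, n = 2 each), a 5.99-fold difference. On the log2 scale Id1 rose by 2.55 (SE 0.0798, limma's adjusted p = 8.27e-05), the 53rd highest of the 13931 tested genes. In bulk libraries, fewer cells of a type and less RNA per cell cannot be told apart, here and for all genes that follow.

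Id2 (ENSMUSG00000020644, chr12:25093799-25097140) was at 42.47 and 42.44 FPKM without Dox and at 188.11 and 193.55 FPKM with it. Without Dox its level was close to that of Id1, and its replicates were the tightest of the family relative to the change. It rose 4.49-fold, or by 2.14 on the log2 scale (SE 0.0613, limma's adjusted p = 6.96e-05).

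Id3 (ENSMUSG00000007872, chr4:136143497-136145755) was the most abundant of the 10 in every library. It was listed at 284.9 and 284.47 FPKM without Dox and at 418.69 and 447.77 FPKM with Dox. The groups did not overlap, but the rise was the smallest of the Id genes that rose, 1.52-fold, or 0.60 on the log2 scale (SE 0.0740, limma's adjusted p = 0.00697). The call was lost without untreated replicate 1 (adjusted p = 0.0976), without untreated replicate 2 (0.0981) and without Dox replicate 2 (0.0503), while the log2 fold change was 0.55 to 0.65 in the 4 limma fits that left out 1 library.

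Id4 (ENSMUSG00000021379, chr13:48261228-48266026) went the other way. It was at 21.14 and 23.89 FPKM without Dox and at 4.25 and 3.44 FPKM with Dox, both Dox libraries lying well below both untreated ones. The means were 22.5 ± 1.94 and 3.84 ± 0.573 FPKM (SD, n = 2 each), 5.86-fold lower with Dox. Its log2 fold change of -2.28 (SE 0.122, limma's adjusted p = 3.93e-04) was the 61st lowest of all tested genes. The annotated exons of Id4 share 2.1% and 4.4% of their bases with noncoding genes on the opposite strand, A330033J07Rik and Gm49291. The other 9 genes share no annotated exon bases with another gene.

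FPKM is scaled to length, so the levels of the Id genes can be set side by side within a library. Their sum was 387.6 and 387.21 FPKM without Dox and 826.05 and 882.22 FPKM with Dox, 2.20 times as much by the means. Id3 made up 73.5% of the sum in both untreated libraries and 50.7% and 50.8% in the Dox libraries. The share of Id1 was 10.1% and 9.40% without Dox and 26% and 26.9% with it. That of Id2 was 11% in both untreated libraries and 22.8% and 21.9% with Dox. Id4 held 5.45% and 6.17% without Dox and 0.514% and 0.390% with Dox. The mix thus shifted from Id3 and Id4 towards Id1 and Id2. The order of levels without Dox was Id3, Id2, Id1 and Id4, with Id2 above Id1 in both libraries. With Dox it was Id3, Id1, Id2 and Id4, with Id1 above Id2 in both. The ratio of Id1 to Id4 was 1.69 ± 0.230 without Dox and 59.8 ± 13.0 with Dox (SD, n = 2 each).

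**Figure D2:**
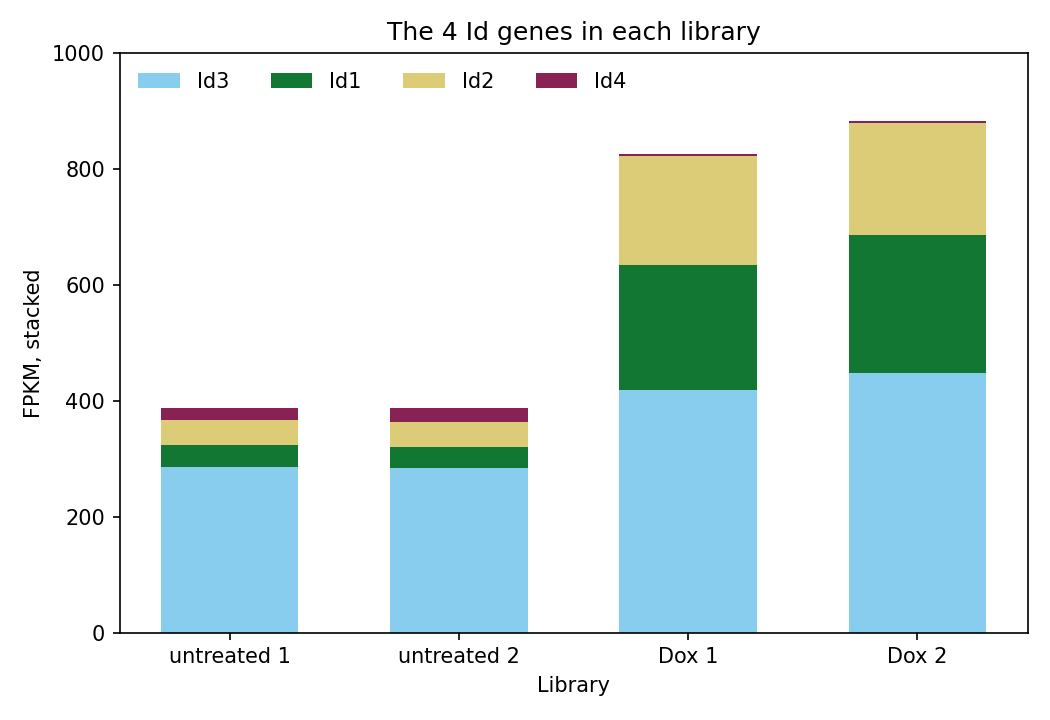
Stacked bars of the FPKM of Id3, Id1, Id2 and Id4 in each of the 4 libraries, on an axis that starts at 0. The sum is about 387 FPKM in both untreated libraries and 826.05 and 882.22 FPKM in the Dox libraries, with Id4 a thin band at the top of the Dox bars.

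The Msx genes encode homeodomain repressors that BMP signals induce in many dorsal and ectodermal tissues. Msx2 (ENSMUSG00000021469, chr13:53466884-53473074) was at 4.2 and 4.07 FPKM without Dox and at 21.66 and 23.61 FPKM with Dox. It rose 5.47-fold, or by 2.20 on the log2 scale (SE 0.0904, limma's adjusted p = 1.65e-04). Msx1 (ENSMUSG00000048450, chr5:37820485-37824583) was at 6.64 and 6.94 FPKM without Dox and at 4.88 and 4.39 FPKM with Dox. Both Dox libraries were lower, but the log2 fold change of -0.47 (SE 0.103) did not pass the threshold (adjusted p = 0.0519 in limma). It passed with a pseudocount of 0.1 (adjusted p = 0.0486) or 5 (0.0489), without the variance trend (0.0394) with robust estimation (0.0409) and after GC and length trends were removed (0.0387). It did not pass in the other 10 fits, among them the replicate block (0.104), TPM (0.116), no filter (0.134) and all 4 that left out 1 library, with adjusted p up to 0.256. The order of the pair turned: the ratio of Msx2 to Msx1 was 0.609 ± 0.0326 without Dox and 4.91 ± 0.664 with Dox (SD, n = 2 each). Msx3, the remaining gene of the family and not one of the 10, stayed at 0.03 to 0.16 FPKM in all libraries.

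Promoters of a gene that fell (Id4), one that did not pass (Msx1) and genes that rose (Smad6, Smad9) are shown to set their letters side by side. Each is the 150 bases before a RefSeq transcription start on GRCm38.p6, on the gene's strand. They are those of the 7 members with a RefSeq promoter window whose 150 bases hold no annotated exon. Capitals mark GGCGCC and GGAGCC on either strand, the latter reading GGCTCC when reversed, which are letters found in GC-rich Smad response elements. The stretches lie at chr13:48260966-48261115 (plus strand), chr5:37824586-37824735 (minus), chr9:64022060-64022209 (minus) and chr3:54755432-54755581 (plus).
Id4: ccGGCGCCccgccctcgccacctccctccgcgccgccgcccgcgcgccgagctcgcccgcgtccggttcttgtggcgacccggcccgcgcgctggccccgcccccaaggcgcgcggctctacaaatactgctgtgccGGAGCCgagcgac
Msx1: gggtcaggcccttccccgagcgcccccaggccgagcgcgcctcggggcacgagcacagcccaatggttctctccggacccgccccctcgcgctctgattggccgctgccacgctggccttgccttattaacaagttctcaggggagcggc
Smad6: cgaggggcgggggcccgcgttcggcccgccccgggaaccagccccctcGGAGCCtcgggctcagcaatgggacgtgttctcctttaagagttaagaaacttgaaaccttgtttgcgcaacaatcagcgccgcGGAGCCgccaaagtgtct
Smad9: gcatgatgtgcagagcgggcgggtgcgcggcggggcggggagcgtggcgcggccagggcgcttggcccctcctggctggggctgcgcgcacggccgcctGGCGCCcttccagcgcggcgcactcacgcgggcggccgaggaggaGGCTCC

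The stretch of Id4, which fell, holds 1 GGCGCC and 1 GGAGCC, as does that of Smad9, which rose. That of Smad6 holds 2 GGAGCC and that of Msx1 neither. In windows from 250 bases before to 50 after the start, searched on both strands, GGCGCC occurred in 3 of the 7 members with a window and in 11.9% of all 32851 windows. GGAGCC occurred in 7 of 7 and in 30.8% of all windows, CAGAC in 1 of 7 and in 49.6%, and the E-box CANNTG in 5 of 7 and in 72.3%. The windows of the members held 60.0% to 73.7% G and C. The shares of all windows are not matched for G and C content, which was not computed for them. A match is a description of letters and not a bound site.

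Smad6 and Smad7 encode the inhibitory Smads, which block receptor-activated Smads and recruit ubiquitin ligases to the receptors. Smad6 (ENSMUSG00000036867, chr9:63953076-64022059) was at 4.48 and 3.87 FPKM without Dox and at 9.47 and 11.58 FPKM with Dox, a 2.52-fold rise (log2 fold change 1.15, SE 0.131, adjusted p = 0.0054 in limma). Its call was lost without Dox replicate 2 (adjusted p = 0.0502) and with no filter on low values (0.0582). Smad7 (ENSMUSG00000025880, chr18:75367529-75395935) was at 3.19 and 2.8 FPKM without Dox and at 7.71 and 7.5 FPKM with Dox, a 2.54-fold rise (log2 fold change 1.11, SE 0.107, adjusted p = 0.00293 in limma). In each group Smad6 lay above Smad7 in both libraries. For both genes the Dox libraries were well clear of the untreated ones.

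Bambi (ENSMUSG00000024232, chr18:3507923-3516404) encodes a receptor-like protein without a kinase that competes with type I receptors. It was at 3.43 and 4.09 FPKM without Dox and at 7.6 and 7.48 FPKM with Dox. Both Dox libraries were higher, by 2.01-fold in the means, or 0.85 on the log2 scale (SE 0.113, limma's adjusted p = 0.00962). The call was lost without untreated replicate 1 (adjusted p = 0.0641), Dox replicate 1 (0.0801) or Dox replicate 2 (0.0833), and with no filter (0.0663).

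Smad9, also known as Smad8, is the BMP receptor-activated Smad that is itself a target of the pathway. Smad9 (ENSMUSG00000027796, chr3:54755582-54801257) had 0.11 FPKM in each untreated library and at 3.54 and 4.61 FPKM with Dox. By the fitted depth and the annotated transcript this is about 18 and 20 fragments without Dox against about 575 and 773 with Dox. The ratio of the means was 37.0, the largest of the 10. The log2 fold change on the log2(FPKM + 1) scale was 2.18 (SE 0.155, adjusted p = 9.93e-04 in limma), and it moved with the pseudocount, to 4.30 with 0.1 and 0.83 with 5. The same setting of 5 lowered the log2 fold changes of the other low genes, to 0.76 for Smad6, 0.66 for Smad7 and 0.52 for Bambi, with all 4 still called.

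**Figure D3:**
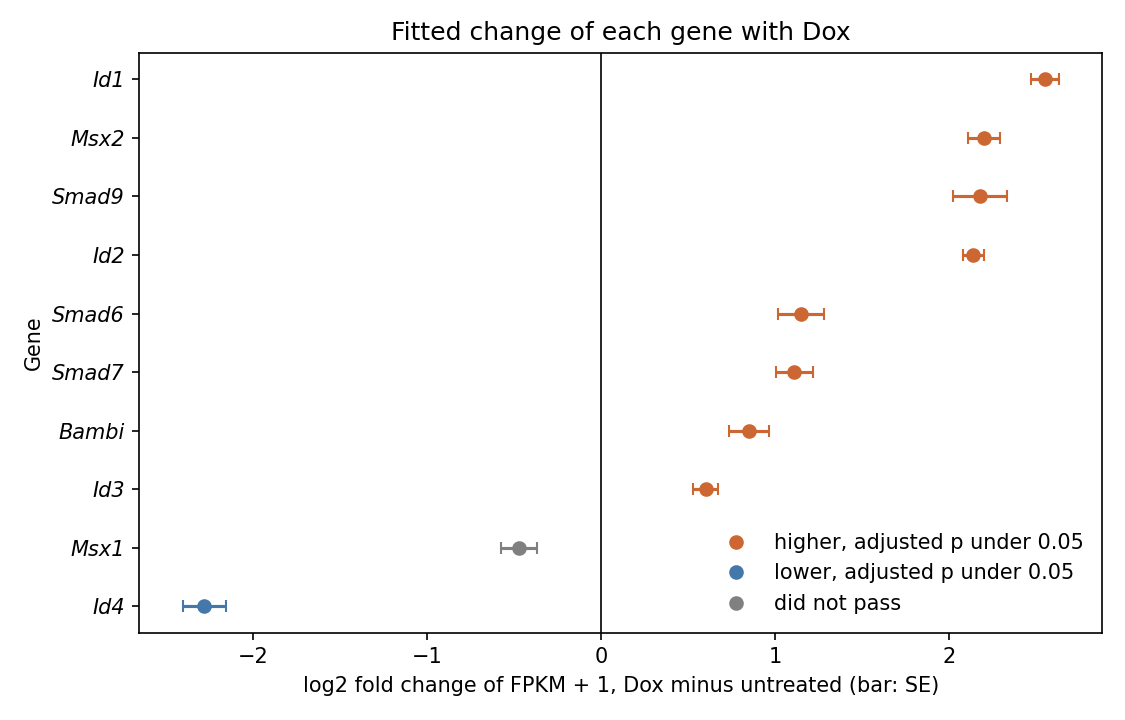
Log2 fold change of FPKM + 1 (Dox minus untreated, bars for the standard error from limma) of the 10 genes, ordered by value and coloured by call. They run from -2.28 for Id4 to 2.55 for Id1, and Msx1, in grey, is the one that did not pass.

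The rest of the BMP pathway was described with 6 lists that hold 91 other genes, of which 53 were tested. In these lists 11 genes were called higher and 14 lower, and the median change of the tested ones was -0.03 on the log2 scale, beside 4.44% and 4.87% of all tested genes. Of these, 6 and 7 had a mean of at least 1 FPKM in both groups, while the others passed the filter through the group where they were high. Of the 17 BMP and GDF ligands 7 were tested, with 1 higher and 5 lower. Of the 5, only 1, Bmp7, had a mean of at least 1 FPKM in both groups. The others, Gdf7 and Bmp6 among them, passed the filter only through the untreated libraries, so their direction was fixed once they were tested. Bmp4, a ligand of the dorsal optic vesicle, was at 6.87 and 3.42 FPKM without Dox and at 95.05 and 79.29 FPKM with it (log2 fold change 3.90, adjusted p = 9.36e-04 in limma). Gdf7 and Bmp6, ligands of the roof plate, fell from 4.77 to 0.440 and from 4.76 to 0.590 FPKM in the means (log2 fold changes -2.02 and -1.87, adjusted p = 0.00321 and 0.00171 in limma). Bmp2, Bmp5 and Bmp7 were lower as well. The 5 lower calls were 3 without Dox replicate 1 or Dox replicate 2. Annotated exons of 12 of the 33 pathway and marker genes picked by the naming rule overlap another gene. The shares of exonic bases were 27.4% for Rax and 13.1% for Rspo3, and below 10% for the other 10, with 4% for Bmp4 and 5.7% for Bmp6. Bmp5, outside that rule, shares 46.7% with a gene on the opposite strand, so these values are uncertain if counting ignored strand.

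Of the 11 tested BMP and activin receptors and co-receptors, 1 was higher and 3 were lower. The higher one, the type I receptor gene Bmpr1b, was at 0.67 and 0.77 FPKM without Dox and at 1.76 and 2.01 FPKM with it (log2 fold change 0.75, adjusted p = 0.0275 in limma). It passed the filter only through the Dox libraries, and its call was lost in each of the 4 fits that left out 1 library and with no filter. Acvr2a, a type II receptor, fell from 30.6 to 14.3 FPKM and Rgma, a BMP co-receptor, from 43.3 to 21.4 FPKM (log2 fold changes -1.04 and -0.98). Rgmb fell by 0.76 on the log2 scale (limma's adjusted p = 0.0208), a call lost in each of the 4 fits that left out 1 library. The type I receptor gene Bmpr1a, at 37.93 and 39.55 against 41.92 and 41.64 FPKM, did not pass (adjusted p = 0.392 in limma), and none of the 5 receptor-activated and common Smads did either. At an unadjusted p below 0.05 in limma, 2 of the 5 Smads were counted, Smad2 (log2 fold change 0.22) and Smad3 (-0.26). Smad1, Smad5 and Smad4 had log2 fold changes of 0.06, -0.03 and 0.05 (adjusted p = 0.799 to 0.862 in limma).

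Of 10 tested extracellular BMP antagonists 4 were higher and 2 lower. Without untreated replicate 2, Dox replicate 1 or Dox replicate 2 these counts were 2 higher and 0 lower. Grem1 rose from 0.07 and 0.04 FPKM to 16.1 and 17.75 FPKM (log2 fold change 4.09, adjusted p = 6.96e-05 in limma), and Chrdl1 from 1.12 and 1.13 to 5.95 and 7.35 FPKM. Nog and Sostdc1 were lower, with log2 fold changes of -0.59 and -0.86. Grem1 passed the filter only through the Dox libraries and Sostdc1 only through the untreated ones, so their directions were fixed once tested. The call of Sostdc1 was lost in those 3 fits, and that of Nog in all 4 that left out 1 library. Among 11 tested Smad repressors and ubiquitin ligases Skil was higher (log2 fold change 0.93), a call lost without Dox replicate 2 (adjusted p = 0.0557 in limma). Pmepa1 was lower (-0.77, adjusted p = 0.0425 in limma), a call lost without untreated replicate 1, Dox replicate 1 or Dox replicate 2 and in 3 other fits. Pmepa1 passed the filter only through the untreated libraries, so a lower mean with Dox was fixed once it was tested. Of 9 tested other reported targets 4 were higher and 3 lower. Of these, 1 and 2 had a mean of at least 1 FPKM in both groups. Tbx2, Tbx3 and Tbx5 passed the filter only through the Dox libraries, so a higher mean with Dox was fixed once they were tested. The T-box genes Tbx2 and Tbx3 were at 0.12 to 0.22 FPKM without Dox and at 59.09 and 78.13 and at 29.18 and 40.81 FPKM with it. Tbx5, a dorsal retina gene, was listed at 0 in both untreated libraries and at 7.33 and 9.8 FPKM with Dox.

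**Figure D4:**
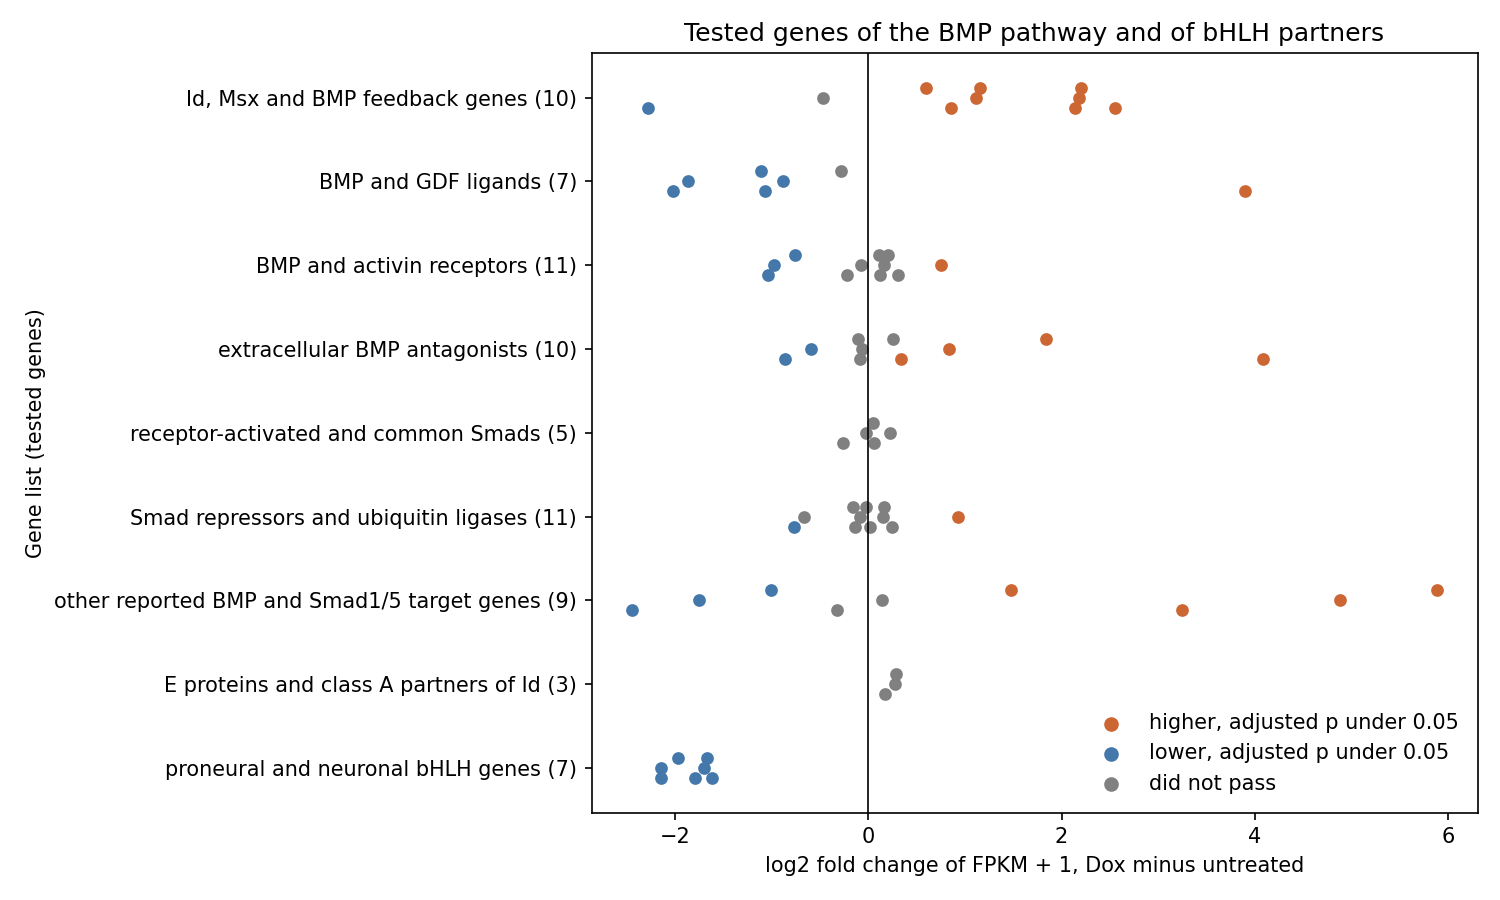
Log2 fold change of FPKM + 1 (Dox minus untreated) of each tested gene, 1 row per list with the number of tested genes, coloured by call; the vertical offset within a row only separates points. The 5 receptor-activated and common Smads lie between -0.26 and 0.22, and the 7 tested proneural genes between -2.15 and -1.62.

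Id proteins act through their partners, so these were listed as well. The E-protein genes Tcf3, Tcf4 and Tcf12 had log2 fold changes of 0.17, 0.29 and 0.28, and none of the 3 passed (adjusted p = 0.0766 to 0.328 in limma, 2 of the 3 at an unadjusted p below 0.05). Of the 15 proneural and neuronal bHLH genes 7 were tested, and all 7 were lower. None of the 7 kept a mean of 1 FPKM with Dox, so they passed the filter only through the untreated libraries. Neurog2 fell from 5.4 and 4.64 to 0.3 and 0.4 FPKM, Olig2 from 4.97 and 3.74 to 0.18 and 0.21 FPKM, and Nhlh1 from 3.22 and 3.59 to 0.1 and 0.14 FPKM (adjusted p = 6.80e-04 to 0.00111 in limma). Their summed level over the 15 genes was 26.1 to 27.7 FPKM without Dox and 1.38 to 2.24 FPKM with Dox.

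Markers of the cell types these organoids could hold were listed beside the 10 genes. Retinal progenitor markers were higher for 11 of 13 tested genes and lower for Foxd1. Of the 11, 4 had a mean of at least 1 FPKM in both groups. Of the 10 pigment epithelium markers 3 were tested, Pmel, Dct and Mitf, and all 3 were higher. Dct and Mitf passed the filter only through the Dox libraries, so a higher mean with Dox was fixed once they were tested. Among the 7 that were not tested, the group means of Mlana were 0.06 and 0.065 FPKM, those of Slc45a2 0.085 and 0.095 FPKM and those of Gpnmb 0.535 FPKM without and 0.245 FPKM with Dox. The 10 genes of that list summed to 3.11 to 3.41 FPKM without Dox and 62.5 FPKM with Dox in both libraries. Rpe65, a gene of mature pigment epithelium, was at 0 to 0.08 FPKM. Roof plate and dorsal midline markers were lower for 7 and higher for 3 of 11 tested genes. The count of 3 was 1 without untreated replicate 1, untreated replicate 2 or Dox replicate 2. The 16 summed to 466 to 479 FPKM without Dox and 274 to 293 FPKM with it. Zic1 fell from 70.99 and 66.83 to 3.13 and 3.37 FPKM.

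Neural crest markers were lower for 7 and higher for 1 of 11 tested genes. Of the 7, 2 had a mean of at least 1 FPKM in both groups, and the others, Sox10 and Foxd3 among them, passed the filter only through the untreated libraries. The higher call, of Sox9, was lost without untreated replicate 1, untreated replicate 2 or Dox replicate 2. The 12 summed to 54.2 to 55.9 FPKM without Dox and 26.6 to 26.9 FPKM with it. Sox10 fell from 12.79 and 13.35 to 0.82 and 0.43 FPKM, Foxd3 from 5 and 4.66 to 0.45 and 0.07 FPKM. The 3 genes that did not pass, Twist1, Snai2 and Snai1, were higher in both Dox libraries than in either untreated one. In 53.4% of all tested genes the groups did not overlap. The means of Twist1, Snai2 and Snai1 were 2.46, 1.52 and 0.93 FPKM without Dox and 3.71, 2.45 and 1.31 FPKM with it. The adjusted p-values in limma were 0.0914, 0.0966 and 0.306. Surface ectoderm markers summed to 82.8 to 93.3 FPKM without Dox and 75.5 to 86.4 FPKM with it, 1 of 8 tested genes being lower, and Krt14 was listed at 0 and Krt5 at 0 to 0.02 FPKM. Endothelial and mesenchymal markers were higher for 3 of 6 tested genes and summed to 86.9 to 91.8 FPKM without Dox and 93.8 to 115 FPKM with it. Acta2 made up most of that sum in every library, at 80.69 and 77.83 FPKM without Dox and 78.44 and 55.21 FPKM with it. Acta2, Col1a1 and Col3a1 did not pass (adjusted p = 0.397, 0.778 and 0.52 in limma). Col1a2 rose from 2.46 and 1.93 to 12.21 and 12.02 FPKM. Of the 3 higher genes of this list, 2 had a mean of at least 1 FPKM in both groups. The other, Kdr, passed the filter only through the Dox libraries, so a higher mean with Dox was fixed once it was tested. Kdr rose from 0.22 and 0.25 to 13.91 and 17.63 FPKM, while the endothelial genes Pecam1, Cdh5, Tek and Tie1 were at or below 0.89 FPKM in all libraries and were not tested. Of these 4, Cdh5 was at 0.05 and 0.01 against 0.43 and 0.61 FPKM and Tek at 0.02 and 0.08 against 0.2 and 0.28 FPKM, both without overlap of the groups. The part of these cell types in the changes of the 10 genes was not tested.

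The genes most like Id1, the called member with the largest change on the log2(FPKM + 1) scale, were sought among all tested genes by the root mean squared difference of the 4 centred log2 values. With a pseudocount of 0.1, or as a ratio of FPKM, Smad9 had the largest change. The genes nearest Id1 were Mab21l2 (difference 0.0362), Lpar1 (0.0387) and H19 (0.0473). H19 was at 93.22 and 80.81 FPKM without Dox and at 498.19 and 519.58 FPKM with Dox. Mab21l2 was at 12.46 and 11.49 against 68.78 and 81.68 FPKM. With 4 libraries in 2 groups such a likeness says little more than that the fold changes are of the same size.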

How the data were processed

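The authors deposited 1 table of FPKM values with 1 column per library, not pooled, rounded to 2 decimals. Alignment and quantification used STAR and Cuffdiff with build mm10, per the submitters' processing notes. Their versions, the annotation release and the strand setting are not given in the sources used here. Count models were not applied to these values. Libraries were grouped by the treatment label. Values were transformed to log2(FPKM + 1), and genes averaging 1 FPKM or more were fitted with limma 3.58.1 in R 4.3.3 (lmFit, eBayes with trend, no covariate, two-sided, Benjamini-Hochberg over all tested genes, threshold 0.05). The fit was tested on simulated data. Depth was fitted from low values of single-transcript genes, of which 91.1% to 92.2% lay within 0.25 of a whole fragment, beside 50% by chance. Fragment numbers derived from it are approximate. Gene positions and exon overlaps are those of GENCODE M21 (GRCm38, the same assembly as mm10) and promoter sequences from RefSeq (GRCm38.p6).

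The members and gene lists were chosen with earlier results of these data known. Named genes are the 10 members, Mettl3, up to 3 called genes with the largest absolute change per list, and the 3 genes nearest Id1. Other genes named from the lists were picked after their values were seen. The alternatives were other pseudocounts, filters, scalings and variance estimates, a replicate block, and each library left out. Removal of GC and length trends was added after seeing the data.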

Additional observations from a re-analysis of the deposited data

How the results depend on the processing

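The count of 8 members higher ranged from 5 to 7 in the fits that each left out 1 library, and was lowest, at 5, without Dox replicate 2, where Id3, Smad6 and Bambi dropped out. These fits assume that the lone library of a group varies like the other group's. The count of 1 lower was 2, by the addition of Msx1, with a pseudocount of 0.1, a pseudocount of 5, eBayes without the trend, robust eBayes, and after GC and length trends were removed. The pathway counts of 11 higher and 14 lower were 6 and 7 with a minimum mean of 5 FPKM, which tests fewer genes (35 of the 53), and 9 were lower with no filter. Leaving out 1 library gave 7 to 9 higher and 8 to 10 lower. No member changed sign in any of the 15 other fits, and Id1, Id2, Id4, Msx2 and Smad7 were called in all 15, Smad9 in the 14 that tested it. The Dox to untreated ratio of the Id sum was 2.20 as deposited and 2.24 in TPM. Of the 37 other genes named by the rule, 6 (Gdf7, Pdgfra, Pmepa1, Rgmb, Skil and Sostdc1) lost their call in some fit and 0 changed sign. Genes named outside the rule are not in that count. Among those, Bmpr1b, Nog and Sox9 lost their calls in some fits, as given above. Some of Bmp2, Bmp5 and Bmp7 also lost theirs without Dox replicate 1 or Dox replicate 2. Of 28 counts over single lists, 14 stayed within 1.5 times in all fits, 12 were smaller and 5 larger in at least 1, with 3 among both. Over all genes, 1297 were called, against 745 with no filter, 821 with a minimum mean of 5 FPKM and 593 to 697 with 1 library left out. A replicate block, with the number in the titles as the block, left the members at 8 higher and 1 lower and the pathway genes at 10 and 14. It is not known that equal numbers mark paired libraries; replicate differences correlated at -0.0435 between the groups across genes. Depth limits Smad9 most, with about 18 and 20 fragments in the untreated libraries.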

Other observations

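Some genes tied to the pathway were under the filter and were not tested. They are named here after their values were seen. Gdf6, a ligand of the dorsal eye, was at 0.11 and 0.14 FPKM without Dox and at 1.43 and 2.2 FPKM with Dox. Bmper, an extracellular BMP modulator, was at 0.26 and 0.28 against 1.27 and 1.16 FPKM. The GATA factor genes Gata2 and Gata3 were at 0.18 to 0.3 FPKM without Dox and at 0.86 to 1.45 FPKM with it, and Dlx5 was at 0.09 and 0.05 against 1.06 and 0.95 FPKM. In the other direction, Heyl, a hairy-related repressor, was at 2.11 and 1.43 against 0.09 and 0.06 FPKM, and Neurod4, a neuronal bHLH gene, at 1.56 and 1.47 against 0.02 and 0.05 FPKM.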
